A study of Mus musculus and Homo sapiens with 24 samples.

Results

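Day 1 of differentiation in the human myoblast line LHCN-M2 was compared with day 0 and with day 12 at once, to find the genes whose level at day 1 lay outside both other days. LHCN-M2 is an established line of human skeletal myoblasts immortalised with TERT and CDK4, so the 12 libraries describe 1 line and cells that carry extra CDK4. Reads of polyadenylated RNA were counted per gene, with 4 libraries for each of day 0, day 1 and day 12. The mouse myoblast line C2C12 was sampled with 4 libraries for each of days 0, 1 and 6. All 24 libraries carry the genotype label control, and the cell type label is skeletal myoblast in both lines. The labels used here name no medium, serum or agent and no culture of origin. P-values thus rest on differences among libraries of a group, and these may be technical.

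Of 18214 genes tested in LHCN-M2, 10299 (56.54%) had a day 1 mean outside both other days on log2 CPM (counts scaled to library size), 5559 above and 4740 below. A mean can lie outside by any margin, so a gene was counted only when both differences passed a test. Each gene was tested for day 1 minus day 0 and for day 1 minus day 12. It was called when both differences had the same sign and the larger p, adjusted over all tested genes, was at most 0.05. This gave 2156 genes (11.84%): 1120 with day 1 above both days (6.15% of the genes tested) and 1036 with day 1 below both (5.69%). A gene is said to have risen or fallen at day 1 when it was called in that way. The nearer-side fold is the fold against whichever other day lay closer.

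Myoblasts that start to differentiate leave the cell cycle, switch on the transcription factor MYOG, which drives the muscle programme, and later fuse into myotubes that build sarcomeres. MYOD1 acts upstream and marks committed myoblasts before and during this switch. The SREBP transcription factors switch on cholesterol and fatty acid synthesis when cellular sterols are low. LXR switches on cholesterol export when sterols are high. YAP and TEAD drive genes such as CTGF (the table's older name for CCN2) in spread, growing cells, and mitotic genes are transcribed mostly in cells about to divide.

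Most muscle markers matched the label and the order of the days. MYOG had 0 counts in each day 0 library. It read 89.9, 69.4, 86.7 and 74.04 CPM at day 1 and 362, 339.8, 377 and 368 at day 12. Day 1 stood at least 4183-fold higher than the level of 3 counts over the day 0 libraries. MYF5, a myoblast regulator, read 267 ± 14.5 CPM (SD, n = 4) at day 0, 64.8 ± 3.13 at day 1 and 14.2 ± 2.11 at day 12. The desmin gene DES read 301 ± 89.3 CPM (SD, n = 4) at day 0, 1309 ± 88.8 at day 1 and 1874 ± 123 at day 12. The embryonic myosin gene MYH3 read 0.757 ± 0.319, 6.25 ± 1.44 and 2495 ± 202 CPM at days 0, 1 and 12. These genes changed in 1 direction over the days, so day 1 lay between the others and none was called. PAX7, a satellite cell marker that was also among the 6 myoblast markers looked up, had 0 counts in all 12 libraries, which allows at most 3 counts in all. CDH15, another of these markers, read 183 ± 50.3, 306 ± 25.1 and 285 ± 11.9 CPM at days 0, 1 and 12. Its highest mean was at day 1, but it was not called (adjusted p = 0.734).

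Library totals in LHCN-M2 ran from 33030258 to 48546621 counts. On log2 CPM, the component that held 18.32% of the variance put the day 1 libraries at -62.3 to -66.4, the day 0 libraries at 25.3 to 30.4 and the day 12 libraries at 36.2 to 37.9, so day 1 stood opposite both other days. A weaker component (5.85%) set day 0 replicate 2 (-72.3) and day 12 replicate 1 (-22.4) apart from their groups. Day 0 replicate 2 had 162 CPM of the proliferation marker MKI67 against 319 to 343 in the other day 0 libraries. Without these 2 libraries 1840 genes rose and 1555 fell at day 1, and 1100 of the 1120 and 998 of the 1036 were among them. Of 5 adipocyte markers 1 passed the filter (0 to 0.439 CPM at day 1), and of 5 bone and cartilage markers none did. The 2 measured immune markers summed to at most 2.62 CPM in any library. Fibroblast markers (3 of 6 measured) summed to 239.6 to 266 CPM at day 1, to 185 to 275 at day 0 and to 383 to 439 at day 12. None of these was called at day 1, and of 5 measured smooth muscle markers 1 (SMTN) fell.

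The day 1 genes fell into a few shapes. Of the 1120 that rose, 596 did not differ by the test between day 12 and day 0, 361 were higher at day 12 than at day 0 and 163 were lower. Of the 1036 that fell, the corresponding numbers were 417, 193 and 426. Over all genes tested, 27.1% were higher at day 12 than at day 0 and 27.5% lower. All 4 day 1 libraries lay outside the range of the 8 others in 1060 of the risen and 926 of the fallen genes. Over all tested genes, the called ones included, 8.41% had day 1 above with no overlap and 6.93% below. Ranges and calls come from the same libraries, so these counts are a description. Most changes were small, with a median nearer-side log2 fold change of 0.62 for the risen genes and 0.55 in size for the fallen ones. At least 2-fold changes were seen for 267 risen genes (1.47% of the tested genes) and 178 fallen genes (0.977%). At the threshold itself, CROCC (adjusted p = 0.04996) and ZNF280D (0.04997) were called and EML4 (0.050076) and TUBGCP2 (0.050105) were not, so the edge of the set does not mark a change in size. The scatter of both fold changes shows the called genes in its upper right and lower left.

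**Figure D1:**
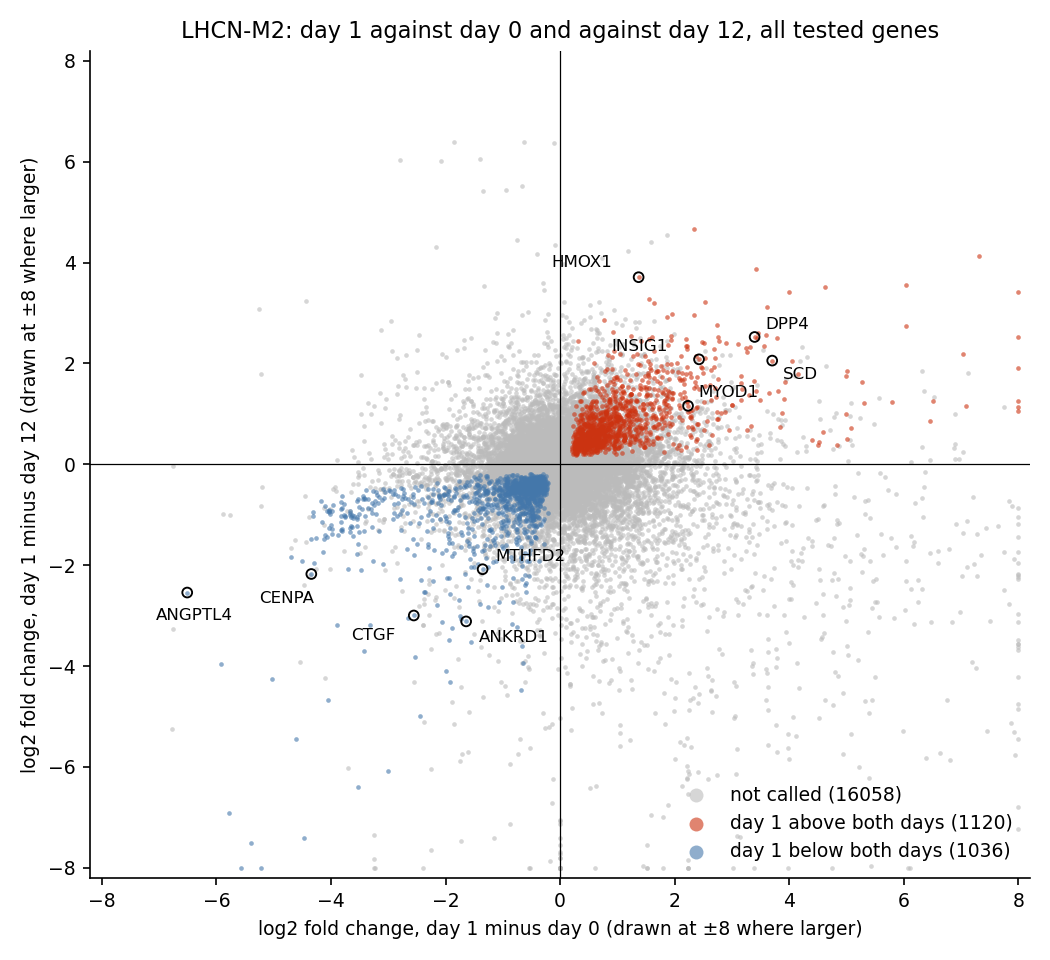
Each point is 1 of the 18214 tested LHCN-M2 genes, with the log2 fold change of day 1 minus day 0 on the x axis and of day 1 minus day 12 on the y axis; red points are the 1120 genes with day 1 above both days, blue points the 1036 below both, grey points the rest, and the circled points are named. The called genes fill the corners where both fold changes share a sign, with DPP4 and SCD far out on one side and ANGPTL4 and CTGF on the other.

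Cholesterol genes were highest at day 1: 21 of 24 members of the synthesis and uptake list rose and none fell, 13 of them by at least 2-fold on the nearer side. The median log2 fold change of the 24 was 1.65 against day 0 and 1.08 against day 12, where all tested genes had 0.03 and 0.00. The list summed to 1999 to 2153 CPM in the day 0 libraries and to 3141 to 3314 in those of day 12. At day 1 the sum was 7130 to 7408 CPM.

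INSIG1, which holds the SREBP complex in the endoplasmic reticulum (chromosome 7, 155297776 to 155310235), read 156, 170.1, 179 and 166 CPM in the 4 day 0 libraries, 912, 943, 866 and 914 at day 1 and 213, 218, 216 and 209 at day 12. The groups did not overlap, and day 0 and day 12 lay close together. Its log2 fold change was 2.43 (SE 0.066) against day 0 and 2.08 (SE 0.065) against day 12 (adjusted p = 1.75e-11). LSS, lanosterol synthase, which closes the sterol ring, read 151, 164, 146 and 159.9 CPM in the 4 day 0 libraries, 631, 613, 664 and 679 at day 1 and 153, 161, 156 and 171 at day 12. Its log2 fold changes were 2.05 (SE 0.069) against day 0 and 2.01 (SE 0.069) against day 12 (adjusted p = 5.19e-11). Day 0 and day 12 covered almost the same range for LSS, so among the days sampled day 1 stood alone.

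Early steps of the pathway rose as well. HMGCS1, the HMG-CoA synthase, read 60.1 ± 9.94 CPM (SD, n = 4) at day 0, 547 ± 26.1 at day 1 and 194 ± 12.4 at day 12, and its day 12 libraries lay above its day 0 libraries. MVD, mevalonate decarboxylase, read 47.6, 99.1, 42.9 and 47.8 CPM in the 4 day 0 libraries, 259.8, 235, 257 and 270.4 at day 1 and 79.1, 78.4, 74.7 and 87.3 at day 12; day 0 replicate 2 was the highest of its group and still below every day 1 library. Late steps behaved alike: HSD17B7 read 10.4 ± 1.03 CPM (SD, n = 4) at day 0, 39.6 ± 2.96 at day 1 and 12.1 ± 0.832 at day 12. DHCR7, the last reductase of the pathway, read 108 ± 6.58 CPM (SD, n = 4) at day 0, 474 ± 10.01 at day 1 and 191 ± 11.1 at day 12. Smaller rises were called for genes that included MVK, STARD4, FDFT1, IDI1, SQLE, MSMO1, FDPS, CYP51A1, NSDHL, EBP, SREBF2 and SC5D, with nearer-side log2 fold changes from 0.27 (SC5D) to 1.28 (MVK).

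Of the 3 cholesterol genes that were not called, TM7SF2, a sterol reductase, read 1.90 ± 0.629, 28.7 ± 0.556 and 21.8 ± 1.64 CPM at days 0, 1 and 12 (adjusted p = 0.0699 for the smaller difference). TM7SF2 thus stayed high at day 12. PMVK, phosphomevalonate kinase, read 37.3 ± 14.1, 26.99 ± 1.35 and 40.7 ± 5.85 CPM, with its lowest mean at day 1 (adjusted p = 0.0999).

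Each measured gene of fatty acid synthesis rose at day 1: 11 of 11 were called, 7 of them at least 2-fold, with list medians of 1.85 against day 0 and 1.48 against day 12. SCD, the desaturase that makes oleic acid (chromosome 10, 100347124 to 100364834), read 288, 249.9, 371 and 317 CPM in the 4 day 0 libraries, 3685, 4070, 4206 and 4132 at day 1 and 829.8, 985, 1019 and 1022 at day 12. Day 1 was the highest group by a wide margin and day 12 stayed above day 0, with log2 fold changes of 3.70 (SE 0.12) against day 0 and 2.06 (SE 0.11) against day 12 (adjusted p = 4.31e-09). FASN, fatty acid synthase, read 283, 256, 284 and 275 CPM in the 4 day 0 libraries, 986, 934, 1086 and 1020 at day 1 and 224, 254, 258 and 277 at day 12. For FASN day 12 was as low as day 0, and the log2 fold changes were 1.86 (SE 0.078) against day 0 and 1.98 (SE 0.078) against day 12 (adjusted p = 4.95e-10).

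The desaturases of polyunsaturated fatty acids moved with them. FADS1 read 162 ± 23.1 CPM (SD, n = 4) at day 0, 761 ± 40.2 at day 1 and 198 ± 13.02 at day 12. FADS2 read 145 ± 9.76 CPM (SD, n = 4) at day 0, 654 ± 18.6 at day 1 and 202 ± 8.66 at day 12. The FADS1 and FADS2 genes overlap on opposite strands in the deposited annotation, and the strand setting of the counting is not given in the sources used here, so reads in the shared stretch may be assigned to either. ACSS2, which makes acetyl-CoA from acetate, read 22.4 ± 1.60 CPM (SD, n = 4) at day 0, 109 ± 4.62 at day 1 and 30.9 ± 1.67 at day 12. It overlaps GGT7 on the opposite strand, and FADS2 also overlaps FEN1 on the same strand. ACSL3, an acyl-CoA synthetase of lipid droplets, read 199 ± 26.4, 711 ± 19.5 and 292 ± 8.37 CPM at days 0, 1 and 12. The regulator SREBF1 rose by 1.2 on the nearer side in log2, ACLY by 0.90, ACACA by 0.67, ELOVL6 by 0.27 and ME1 by 0.21. Calls in the list numbered 9 of 11 without day 1 replicate 2.

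Genes of cholesterol export and other LXR targets also rose: 5 of 6 measured members were called and none fell. APOE, the lipid carrier apolipoprotein E, read 63.4, 45.6, 35.6 and 49.7 CPM at day 1, against 4.11, 8.80, 4.33 and 4.35 at day 0 and 18.8, 12.8, 16.4 and 15.4 at day 12. APOE was variable at day 1, yet its lowest day 1 library was above every other library. ABCA1, the exporter that loads cholesterol onto apolipoproteins, read 12.8 ± 3.37 CPM (SD, n = 4) at day 0, 76.1 ± 11.6 at day 1 and 41.9 ± 4.46 at day 12. MYLIP, a sterol-induced ubiquitin ligase, read 4.68 ± 1.21 CPM (SD, n = 4) at day 0, 17.9 ± 0.914 at day 1 and 8.21 ± 0.670 at day 12. LPCAT3 and NR1H3 (LXR alpha) rose by 0.99 and 0.89 on the nearer side in log2, but both overlap well-expressed genes on the opposite strand (C1S and EMG1 for LPCAT3, ACP2 for NR1H3). The called genes of sterol synthesis and the export genes APOE and ABCA1 thus moved in the same direction at day 1.

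**Figure D2:**
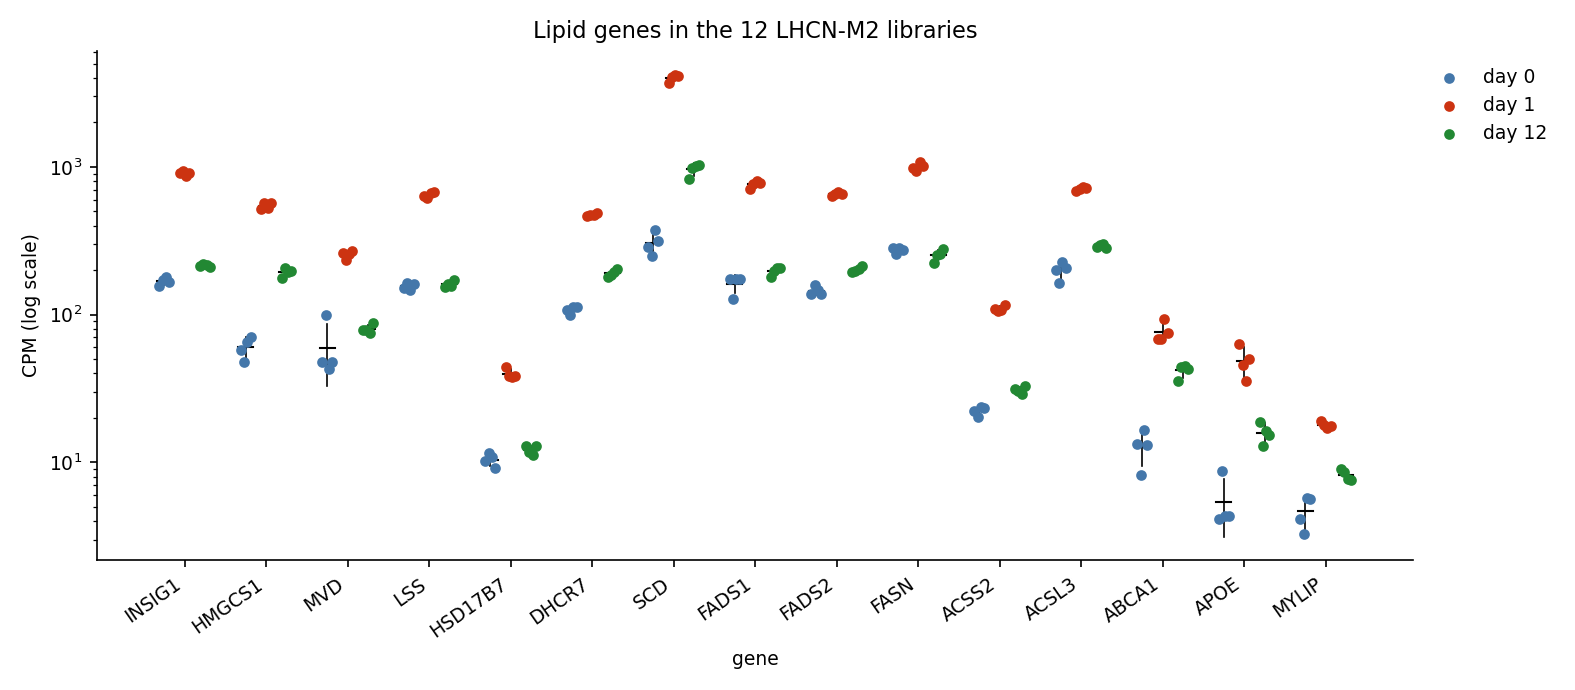
CPM on a log axis for 15 genes of cholesterol synthesis and uptake (INSIG1 to DHCR7), fatty acid synthesis (SCD to ACSL3) and LXR targets (ABCA1 to MYLIP), with 1 point per LHCN-M2 library coloured by day, the horizontal bar at the mean and the vertical bar ± 1 SD (n = 4). In each of the 15 genes the 4 day 1 points lie above the 8 others, and the day 12 means lie between day 1 and day 0 except for FASN.

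Interferon-stimulated genes were higher at day 1 in part of the list and with a wide spread. Of 23 measured members 11 rose and none fell, 8 of them by at least 2-fold, and the medians of the list were 1.39 against day 0 and 1.14 against day 12. IFI44L, an interferon-induced gene, read 20.4, 74.4, 125 and 59.8 CPM in the 4 day 0 libraries, 352, 129, 323 and 231 at day 1 and 51.4, 47.6, 50.7 and 49.4 at day 12. Day 1 replicate 2 was the lowest day 1 library and lay just above day 0 replicate 3, and the day 12 libraries were close together. The log2 fold changes were 1.88 (SE 0.40) against day 0 and 2.37 (SE 0.40) against day 12 (adjusted p = 0.00305).

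IFIT2, whose protein binds foreign RNA, read 11.5, 18.8, 41.9 and 24.4 CPM in the 4 day 0 libraries, 145, 46.2, 96.6 and 147 at day 1 and 41.8, 31.5, 38.8 and 32.4 at day 12, with no overlap between day 1 and the others. OAS1, which senses double-stranded RNA, read 1.96, 14.2, 21.4 and 8.14 CPM in the 4 day 0 libraries, 58.2, 18.2, 47.5 and 34.3 at day 1 and 11.2, 12.3, 11.1 and 13.2 at day 12. Here day 1 replicate 2 lay inside the day 0 range. IFIT1, IFIT3 and MX1 showed the same overlap, with day 1 means of 356, 204 and 185 CPM against 126, 71.7 and 62.0 at day 0. Of the 11 called genes 6 had no overlap between day 1 and the other days.

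The call of MX1 (adjusted p = 0.0338) was lost when 1 library was left out in 7 of 12 cases, with adjusted p up to 0.104, and that of OAS1 (adjusted p = 0.0179) without day 1 replicate 1 or day 12 replicate 3. IFIT1 (adjusted p = 0.018) was lost without day 1 replicate 1. The 23 genes summed to 749 to 2466 CPM at day 0, 2403 to 5473 CPM in the day 1 libraries and 1843 to 1951 CPM in those of day 12. Single libraries of days 0 and 1 differed more than 2-fold within their group. Without day 1 replicate 2 the list had 12 risen genes, and without day 0 replicate 2 and day 12 replicate 1 it had 14. HERC5, IFIH1, STAT2 and IRF9 also rose, by 0.64 to 1.14 on the nearer side in log2. IFITM1, a membrane protein that blocks virus entry, was among the 20 largest risen genes and read 26.8, 6.73, 20.4 and 10.8 CPM at day 1, against 0.886, 3.02, 3.51 and 1.17 at day 0 and 3.43, 2.71, 3.07 and 2.90 at day 12, though the IFITM genes are near copies of one another and may share reads. The IFIT genes overlap LIPA on the opposite strand, and LIPA, the lysosomal cholesterol ester hydrolase, also rose (105 ± 10.2, 229 ± 7.04 and 83.3 ± 2.996 CPM at days 0, 1 and 12).

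**Figure D3:**
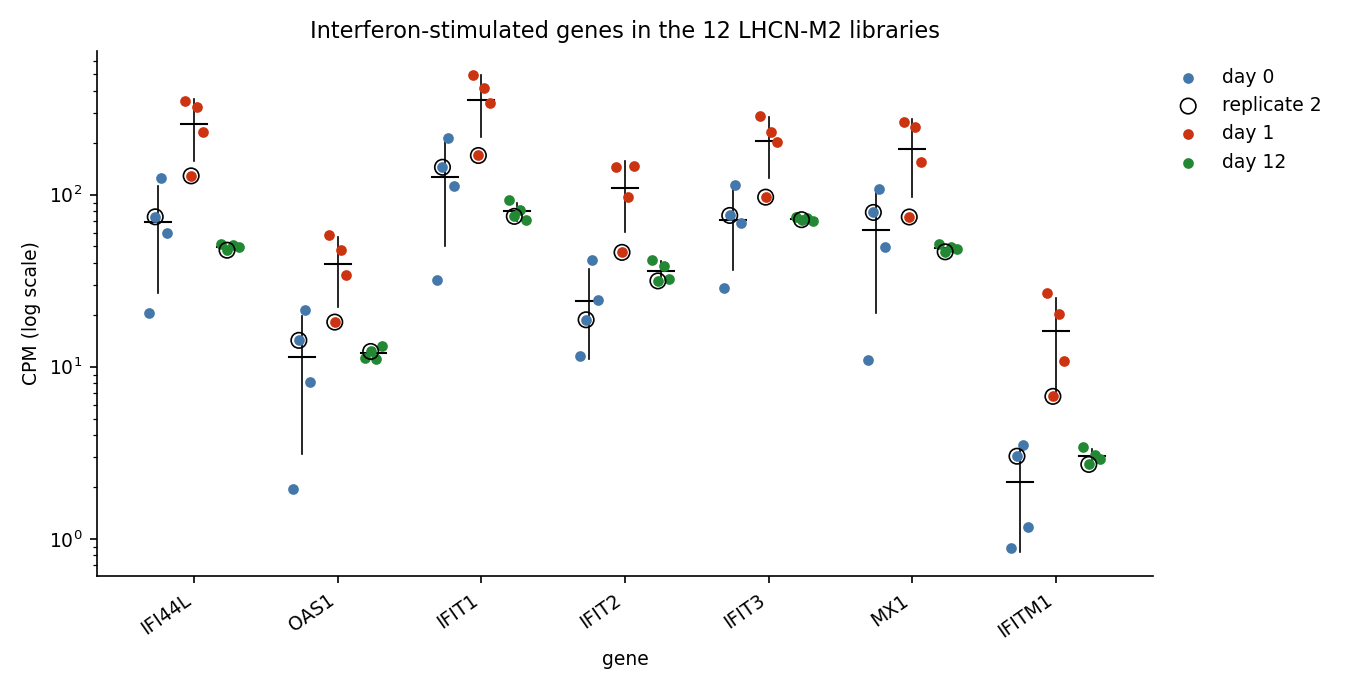
CPM on a log axis for 7 interferon-stimulated genes, with 1 point per LHCN-M2 library coloured by day, replicate 2 of each day circled, the horizontal bar at the mean and the vertical bar ± 1 SD (n = 4). The day 0 libraries spread widely, the day 12 libraries hardly at all, and the circled day 1 library is the lowest of its group in each of the 7 genes.

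Genes of the oxidative stress response and iron storage rose in 5 of 11 cases. HMOX1, heme oxygenase, which frees iron from heme, read 136, 188, 162 and 132 CPM in the 4 day 0 libraries, 419.7, 381, 423 and 388 at day 1 and 33.9, 29.9, 30.02 and 28.9 at day 12. Day 0 lay between day 1 and day 12, and the log2 fold changes were 1.37 (SE 0.10) against day 0 and 3.71 (SE 0.12) against day 12 (adjusted p = 2.36e-07). The ferritin gene FTL read 2192 ± 633 CPM (SD, n = 4) at day 0, 5030 ± 264 at day 1 and 1732 ± 169.8 at day 12, where day 0 replicate 2 was the highest of its group. The other ferritin gene, FTH1, read 799 ± 127 CPM (SD, n = 4) at day 0, 1732 ± 55.9 at day 1 and 772 ± 73.6 at day 12. Ferritins have many processed pseudogenes with which they may share reads. NQO1, a quinone reductase and a standard NRF2 target, read 516 ± 98.6 CPM (SD, n = 4) at day 0, 957 ± 40.3 at day 1 and 306 ± 12.8 at day 12. TFRC, the transferrin receptor that brings iron in, read 276 ± 45.6 CPM (SD, n = 4) at day 0, 298 ± 6.84 at day 1 and 204 ± 10.8 at day 12 and was not called.

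Lysosome genes gave 9 risen of 22 and none fallen, all below 2-fold on the nearer side. CTSA, protective protein of the lysosomal sialidase, read 197 ± 34.9 CPM (SD, n = 4) at day 0, 487 ± 18.99 at day 1 and 259 ± 10.7 at day 12. CTSS, HEXA, ATP6V1A, NPC1, SQSTM1 and LAMP1 also rose, with nearer-side log2 fold changes from 0.82 (CTSS) to 0.40 (LAMP1). The list summed to 5474 to 5735 CPM in the day 1 libraries. These sums lay above the 3734 to 4672 CPM of day 0 and the 4296 to 4732 CPM of day 12.

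The largest single rises came from genes of varied function. DPP4, a cell surface peptidase (chromosome 2, 161992241 to 162074542), had the largest nearer-side change of the eligible genes and read 36.7, 32.5, 40.4 and 36.4 CPM in the 4 day 0 libraries, 377, 396, 388 and 389 at day 1 and 68.1, 68.02, 67.2 and 65.2 at day 12. Its day 1 libraries were close together and 5.75-fold above day 12, with log2 fold changes of 3.40 (SE 0.076) against day 0 and 2.52 (SE 0.073) against day 12 (adjusted p = 1.05e-11). ATP2A3, the SERCA3 calcium pump, read 3.74 ± 1.17 CPM (SD, n = 4) at day 0, 52.1 ± 3.19 at day 1 and 9.10 ± 1.16 at day 12. EVI2A read 12.3 ± 2.33 CPM (SD, n = 4) at day 0, 119 ± 7.40 at day 1 and 25.2 ± 2.56 at day 12. It lies inside the NF1 gene on the opposite strand, whose own level was 82.9 ± 28.1, 107 ± 9.24 and 99.01 ± 14.1 CPM at days 0, 1 and 12.

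C3, the central complement protein, read 0.505 ± 0.174 CPM (SD, n = 4) at day 0, 8.47 ± 2.09 at day 1 and 2.05 ± 0.671 at day 12. C3 overlaps GPR108 on the same strand, which had 22306 counts in all against 1899 for C3. CD7, known as a lymphocyte surface protein, read 1.18 ± 0.548 CPM (SD, n = 4) at day 0, 8.02 ± 1.42 at day 1 and 1.38 ± 0.704 at day 12, while immune markers stayed near 0 as given above. RUSC1-AS1 read 3.61 ± 0.807 CPM (SD, n = 4) at day 0, 20.3 ± 2.04 at day 1 and 3.76 ± 0.563 at day 12. It overlaps the cholesterol gene FDPS on the opposite strand (55.5 ± 7.21, 197 ± 6.90 and 109.95 ± 10.02 CPM at days 0, 1 and 12), and without a stated strand setting their reads cannot be told apart. CA11, FAM117A, EXOC3L1, SLC7A8, MCF2L, RAB26 and INPP5D completed the 20 with the lipid and interferon genes above, all between 1.92 and 2.32 on the nearer side in log2. Outside this set, the matrix proteoglycan gene FMOD read 7.16 ± 0.675 CPM (SD, n = 4) at day 0, 20.99 ± 1.11 at day 1 and 6.71 ± 1.13 at day 12. The chemokine gene CXCL1 read 0.830 ± 0.296, 4.21 ± 0.880 and 0.161 ± 0.152 CPM at days 0, 1 and 12. CCNG2, an atypical cyclin and FOXO target that slows the cell cycle, read 60.5 ± 6.16 CPM (SD, n = 4) at day 0, 219 ± 5.04 at day 1 and 98.6 ± 3.10 at day 12.

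Among muscle regulators day 1 was the highest day for few genes. Of 14 measured myogenic regulators 2 rose (14.3%, beside 6.15% of all genes) and none fell. MYOD1 read 54.6, 68.1, 49.6 and 48.9 CPM in the 4 day 0 libraries, 286, 235, 282 and 246 at day 1 and 127, 105, 118 and 118 at day 12. Its level at day 1 was 2.23-fold that of day 12, with log2 fold changes of 2.23 (SE 0.11) against day 0 and 1.16 (SE 0.11) against day 12 (adjusted p = 2.13e-06). PAX3, a regulator of embryonic muscle progenitors, read 3.95 ± 0.844 CPM (SD, n = 4) at day 0, 7.70 ± 0.705 at day 1 and 4.22 ± 0.655 at day 12. None of 10 embryonic and cardiac-type contractile genes was called, and 1 of 23 mature ones was. This gene, MYBPC2, the fast-type myosin-binding protein C, had 0 counts at day 0. It read 5.39, 6.84, 6.68 and 6.52 CPM at day 1 and 1.79, 3.37, 2.78 and 2.70 at day 12. That day 1 level was at least 332-fold higher than the level of 3 counts over the day 0 libraries.

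The fusion genes differed from each other. MYMX, the small membrane protein that completes myoblast fusion, read 1.77, 2.52, 2.04 and 1.26 CPM in the 4 day 0 libraries, 74.2, 56.1, 70.8 and 56.5 at day 1 and 45.9, 33.3, 40.4 and 36.6 at day 12. It was highest at day 1 (log2 fold change 0.72 over day 12, adjusted p = 0.00317). Its partner MYMK had 0 counts at day 0. It read 5.13, 3.83, 5.96 and 5.15 CPM at day 1 and 222, 206, 231 and 215 at day 12, so day 1 lay between. ANXA1 and CDH2 of the same list fell by 0.60 and by 0.39 on the nearer side in log2. The other 9 of 12 measured fusion and adhesion genes were not called.

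Notch pathway genes gave 3 risen of 11 (27.3%, beside 6.15% of all genes tested) and none fallen. Without day 0 replicate 2 and day 12 replicate 1 the list gave 4 risen and 1 fallen. In C2C12 the share was similar, with 3 of 10 risen (30%) and 1 fallen. DLL1, a Notch ligand, read 5.09 ± 0.773 CPM (SD, n = 4) at day 0, 50.7 ± 4.94 at day 1 and 19.4 ± 1.29 at day 12. HEYL, a Notch target repressor, read 27.6 ± 0.786 CPM (SD, n = 4) at day 0, 159 ± 11.8 at day 1 and 66.96 ± 5.56 at day 12. HEY1, a related repressor, read 1.48 ± 0.553 CPM (SD, n = 4) at day 0, 5.35 ± 1.68 at day 1 and 1.90 ± 0.764 at day 12. Day 1 was above every other library for each of these 3 genes. DLL1 overlaps FAM120B on the opposite strand. The growth factor receptor gene FGFR4 read 8.34 ± 1.36 CPM (SD, n = 4) at day 0, 55.9 ± 6.80 at day 1 and 27.2 ± 0.999 at day 12. FST, an antagonist of activin and myostatin, read 13.5 ± 3.66 CPM (SD, n = 4) at day 0, 43.2 ± 3.25 at day 1 and 25.6 ± 1.24 at day 12. Both were highest at day 1 in all 4 libraries. IGFBP4, which binds IGFs, read 689 ± 175 CPM (SD, n = 4) at day 0, 1768 ± 116 at day 1 and 890.5 ± 91.1 at day 12. The WNT antagonist SFRP1 read 4.55 ± 0.953 CPM (SD, n = 4) at day 0, 13.4 ± 0.536 at day 1 and 2.39 ± 0.352 at day 12. In the bulk RNA of a culture, fewer cells of a type and less RNA per cell cannot be told apart, and this holds for every level given here.

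Among the lists, mitosis had the most fallen genes: 28 of 30 fell at day 1 and none rose, 15 by at least 2-fold on the nearer side. The median log2 fold change of the list was -3.54 against day 0 and -0.997 against day 12, so the genes dropped steeply at day 1 and stood higher again at day 12. CENPA, the centromere histone (chromosome 2, 26764289 to 26801067), read 14.9, 21.8, 14.00 and 17.9 CPM in the 4 day 0 libraries, 1.44, 0.869, 0.246 and 0.891 at day 1 and 5.72, 3.37, 3.91 and 2.31 at day 12. Every day 1 library was below every other library, with log2 fold changes of -4.34 (SE 0.38) against day 0 and -2.18 (SE 0.37) against day 12 (adjusted p = 0.000593). CENPA had 0.861 CPM on average at day 1 and overlaps SLC35F6 on the same strand.

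KIF20A, a kinesin of cell division, read 94.3 ± 8.26 CPM (SD, n = 4) at day 0, 8.17 ± 1.14 at day 1 and 27.9 ± 3.84 at day 12. KIF20A overlaps BRD8 and CDC23 on the opposite strand. BUB1, a kinase of the spindle checkpoint, read 77.6 ± 9.71 CPM (SD, n = 4) at day 0, 6.35 ± 0.494 at day 1 and 16.9 ± 1.03 at day 12. MKI67 read 319, 162, 329 and 343 CPM in the 4 day 0 libraries, 21.02, 22.9, 18.1 and 20.4 at day 1 and 35.7, 52.3, 47.1 and 46.97 at day 12. The low day 0 replicate 2 was still above each day 12 library, and the nearer-side log2 fold change was -1.15 (adjusted p = 0.000482). NUF2, a kinetochore subunit, read 43.8 ± 2.17 CPM (SD, n = 4) at day 0, 1.70 ± 0.354 at day 1 and 6.06 ± 1.46 at day 12. TTK, a checkpoint kinase, read 42.2 ± 3.38, 2.51 ± 0.899 and 6.84 ± 1.57 CPM on the same days. HMMR, a spindle protein, read 58.9 ± 8.06, 3.47 ± 0.639 and 9.19 ± 1.38 CPM. The other called members had nearer-side log2 fold changes from -1.35 (ANLN) to -0.52 (TPX2).

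DNA replication genes dropped against day 0 and stood close to their day 12 levels. Of 33 members 7 fell and none rose, with medians of -2.31 against day 0 and -0.26 against day 12, and 13 fell when day 0 replicate 2 and day 12 replicate 1 were left out. CDC6, which loads the replicative helicase, read 52.4, 46.4, 45.98 and 49.1 CPM in the 4 day 0 libraries, 5.88, 4.79, 5.20 and 5.05 at day 1 and 9.34, 7.49, 9.74 and 7.71 at day 12. Day 1 was the lowest group with no overlap, and the difference from day 12 was -0.72 in log2 (adjusted p = 0.000247). RRM1, the large subunit of ribonucleotide reductase, read 153 ± 8.91 CPM (SD, n = 4) at day 0, 39.2 ± 1.81 at day 1 and 58.7 ± 1.23 at day 12. GINS3, RFC3, MCM6 and RFC2 were among the other called members. Of 16 G1 cyclin, CDK and RB family genes 4 fell (E2F8, CCNE1, E2F1 and CCND1), and E2F8, an E2F repressor made in S phase, read 4.63 ± 1.12 CPM (SD, n = 4) at day 0, 0.804 ± 0.226 at day 1 and 11.3 ± 1.82 at day 12.

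Genes of YAP, TGF-beta and growth factor signalling included the largest falls. CTGF, a matrix-associated growth factor and standard YAP target (chromosome 6, 131948176 to 131951373), read 377, 353, 355 and 372 CPM in the 4 day 0 libraries, 68.5, 60.98, 58.6 and 62.1 at day 1 and 514, 476, 522 and 480.2 at day 12. Day 1 was 5.87-fold below day 0, and day 12 was above both, with log2 fold changes of -2.55 (SE 0.072) against day 0 and -2.998 (SE 0.073) against day 12 (adjusted p = 9.87e-12). ANKRD1, a YAP target that is also a titin-associated muscle protein, read 369 ± 30.3 CPM (SD, n = 4) at day 0, 119 ± 5.05 at day 1 and 1030 ± 12.9 at day 12. CYR61 (now CCN1) read 383 ± 22.9 CPM (SD, n = 4) at day 0, 171 ± 6.84 at day 1 and 252 ± 13.3 at day 12. The list of 12 gave 3 fallen and 2 risen genes (AJUBA and TEAD3, by 0.52 and 0.23 on the nearer side in log2), so its members did not move as 1 group. That is 25% fallen and 16.7% risen, beside 5.69% and 6.15% of all genes.

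PLAT, the tissue-type plasminogen activator, read 598 ± 18.8 CPM (SD, n = 4) at day 0, 79.7 ± 7.12 at day 1 and 168 ± 9.27 at day 12. Of 16 measured TGF-beta and BMP genes 4 fell, FSTL3, SMAD7 and LTBP1 among them, and 2 rose (FST and GREM1). These shares of 25% and 12.5% stand beside 5.69% fallen and 6.15% risen of all genes. HBEGF, a ligand of the EGF receptor, read 9.06 ± 1.96 CPM (SD, n = 4) at day 0, 2.49 ± 0.933 at day 1 and 23.6 ± 1.07 at day 12. DUSP6, the feedback phosphatase of ERK, read 26.6 ± 0.676, 10.2 ± 1.66 and 19.5 ± 1.24 CPM on the same days. Of 23 immediate early genes 5 fell (21.7%) and 3 rose (13%), beside the same shares of all genes.

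Other large falls concerned matrix and metabolism. COL6A3, a collagen VI chain (chromosome 2, 237324003 to 237414375), read 90.8, 56.9, 102 and 105 CPM in the 4 day 0 libraries, 20.04, 18.5, 20.6 and 17.5 at day 1 and 78.4, 102, 97.4 and 104 at day 12. Day 0 and day 12 were at similar levels and day 1 was 4.65-fold below the nearer of them (adjusted p = 1.48e-07). Of 26 collagen and fibrillar matrix genes 5 fell (19.2%) and 1 rose (COL6A1, 3.85%), beside 5.69% and 6.15% of all genes. The basement membrane chain COL4A2 read 257 ± 20.7 CPM (SD, n = 4) at day 0, 159 ± 9.81 at day 1 and 346 ± 19.9 at day 12. COL4A1, which shares its promoter region with COL4A2, read 184 ± 29.6 CPM (SD, n = 4) at day 0, 137 ± 6.05 at day 1 and 372 ± 21.3 at day 12, where a day 0 library overlapped day 1. COL4A1 and COL4A2 overlap on opposite strands in the deposited annotation, so reads in the shared stretch may be assigned to either. ANGPTL4, an inhibitor of lipoprotein lipase, read 92.6, 203, 98.3 and 100.2 CPM in the 4 day 0 libraries, 1.51, 1.58, 1.39 and 0.963 at day 1 and 10.5, 7.91, 7.30 and 6.02 at day 12. Its largest drop was against day 0, and the difference from day 12 was still 5.83-fold.

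KLF2, a zinc finger regulator that responds to flow, read 15.9 ± 3.70 CPM (SD, n = 4) at day 0, 5.57 ± 0.458 at day 1 and 18.4 ± 2.33 at day 12. Its relative KLF4 read 10.03 ± 0.784, 4.95 ± 0.507 and 13.1 ± 0.782 CPM on the same days. LEF1, a transcription factor of WNT signalling, read 6.18 ± 1.46 CPM (SD, n = 4) at day 0, 2.97 ± 0.385 at day 1 and 5.81 ± 0.787 at day 12. IGFBP1, another IGF-binding protein, read 1.16 ± 0.484 CPM (SD, n = 4) at day 0, 0.209 ± 0.156 at day 1 and 6.84 ± 1.06 at day 12, from 38 counts in all at day 1. The remaining largest falls were those of DMBT1, COL13A1, ADGRG6, KIF14, LUCAT1, EMP1, TNFSF4, KNSTRN, ULBP2, PODXL, GDF6 and PADI1, between -1.92 and -1.51 on the nearer side in log2.

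Stress pathways of protein synthesis were lower at day 1 in part. Of 21 measured ATF4 target genes, which serve amino acid supply, 8 fell and 1 rose (DDIT4), with medians of -0.37 against day 0 and -1.26 against day 12. MTHFD2, a mitochondrial folate enzyme, read 46.4, 40.4, 46.9 and 54.3 CPM in the 4 day 0 libraries, 16.8, 18.7, 18.6 and 20.1 at day 1 and 79.3, 79.5, 76.3 and 77.6 at day 12. Day 1 lay below all other libraries, with log2 fold changes of -1.35 (SE 0.091) against day 0 and -2.08 (SE 0.093) against day 12 (adjusted p = 5.98e-08). PHGDH, the entry enzyme of serine synthesis, read 52.2 ± 14.4 CPM (SD, n = 4) at day 0, 20.99 ± 1.05 at day 1 and 68.2 ± 5.77 at day 12. TRIB3, a pseudokinase, read 4.93 ± 0.916 CPM (SD, n = 4) at day 0, 3.14 ± 0.817 at day 1 and 38.2 ± 2.88 at day 12. CHAC1, which degrades glutathione, read 2.55 ± 0.413, 1.63 ± 0.355 and 25.1 ± 2.33 CPM on the same days. Both were highest at day 12 and overlapped between days 0 and 1, and the call of TRIB3 was lost without day 1 replicate 3 (adjusted p = 0.0508).

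Endoplasmic reticulum chaperones gave 8 fallen of 20 and none risen, all less than 2-fold, and 5 without day 1 replicate 2. HSPA5, the main chaperone of that compartment, read 1036, 1125, 1034 and 1066 CPM in the 4 day 0 libraries, 527, 523, 538 and 552 at day 1 and 931, 865, 863 and 855 at day 12. Its day 1 libraries were 1.65-fold below day 12 on average and lower still against day 0. HYOU1, its nucleotide exchange factor, read 169 ± 25.9 CPM (SD, n = 4) at day 0, 96.01 ± 5.44 at day 1 and 139 ± 8.96 at day 12. XBP1, a regulator of the unfolded protein response, read 66.8 ± 8.89, 46.4 ± 3.99 and 108 ± 6.24 CPM on the same days. SDF2L1, MANF, DNAJB11, HSP90B1 and HERPUD1 were the other called members.

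**Figure D4:**
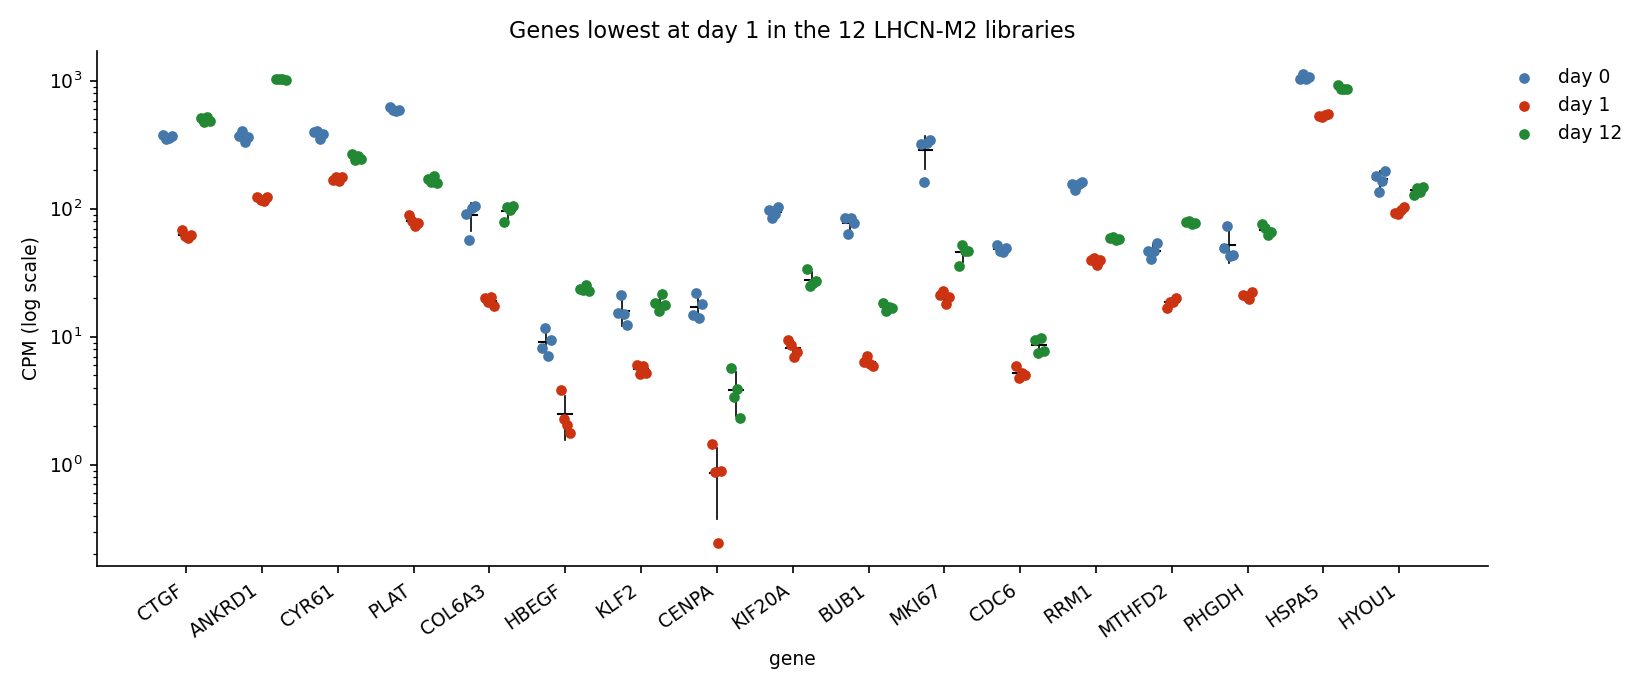
CPM on a log axis for 17 genes with day 1 below both days, with 1 point per LHCN-M2 library coloured by day, the horizontal bar at the mean and the vertical bar ± 1 SD (n = 4). The day 1 points lie below the others in each gene; day 12 is above day 0 for genes such as CTGF, ANKRD1 and MTHFD2 and below it for PLAT and the division genes CENPA to RRM1.

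Some lists had no called member when all 12 libraries were used. No circadian clock gene of 15 was called, none of 25 ribosomal protein genes, none of 13 mitochondrially encoded respiratory chain genes and none of 11 inhibitors of myogenesis. Without day 0 replicate 2 and day 12 replicate 1, 19 of the 25 ribosomal protein genes rose at day 1, and 2 clock genes and 2 mitochondrially encoded genes fell, while the inhibitors of myogenesis still had no call. The medians of the ribosomal protein list in all libraries were -0.12 against day 0 and 0.59 against day 12. Of 27 nuclear respiratory chain genes 2 fell (2 rose and 5 fell without those libraries), of 19 glycolysis genes 2 rose and 1 fell, and of 12 hypoxia targets 1 rose and 1 fell. Beside the 6.15% and 5.69% of all genes, the shares of these last 3 lists in all libraries stand near the background.

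The mouse line C2C12 was tested in the same way at day 1 against days 0 and 6, where 9.97% of its 17065 tested genes rose and 10% fell. Of the 814 risen LHCN-M2 genes with a tested mouse symbol, 171 (21.01%) rose in C2C12 too, or 11.87% of the 1441 matched genes that rose there. Of all 10953 matched genes 13.16% rose in C2C12. Another 64 of the 814 fell in C2C12. Of the 868 fallen genes with a match, 249 (28.69%) fell in C2C12, or 17.22% of the 1446 matched genes that fell there, and 53 rose. Of all matched genes 13.2% fell in C2C12. The last days are not the same time, and matching by symbol is not a table of orthologues.

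The difference between the lines was tested directly, as the day 1 deviation from the mean of the other days in LHCN-M2 minus that in C2C12. It was called positive in 21.9% of 10952 genes and called negative in 29.3%, at an adjusted p of at most 0.05. Among the risen LHCN-M2 genes the deviation was called larger than in C2C12 in 581 of 814, and among the fallen ones it was called lower in 661 of 868. These members were chosen by their deviation in LHCN-M2, so these 2 shares are a description.

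Lipid genes differed between the lines in most cases. In C2C12 7 of 23 cholesterol genes and 6 of 10 fatty acid genes rose, and the deviation was higher in LHCN-M2 in 21 of 23 and 9 of 10. INSIG1 read 136 ± 0.917, 179 ± 4.83 and 275 ± 2.43 CPM at days 0, 1 and 6 in C2C12, with no day 1 peak. The log2 difference between the lines was 2.37 (SE 0.058, adjusted p = 1.68e-19). HMGCS1 read 322 ± 15.2, 491 ± 20.9 and 533 ± 10.98 CPM at days 0, 1 and 6 there, with its highest mean at day 6. FASN peaked in both lines, with 211 ± 35.2, 499.6 ± 42.4 and 162 ± 7.59 CPM at days 0, 1 and 6 in C2C12. Its difference between them was 0.50 (SE 0.11, adjusted p = 0.00071). For APOE the difference was 2.73 (SE 0.31, adjusted p = 9.38e-08), from a low level in C2C12 at 1.92 ± 0.587, 1.95 ± 0.616 and 3.23 ± 0.494 CPM at days 0, 1 and 6.

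Interferon, iron and lysosome genes differed in the same direction in 16 of 19, 6 of 9 and 16 of 22 matched members. In C2C12 1 of 19 interferon genes rose and 1 fell, and 8 of 22 lysosome genes fell. HMOX1, which peaked in LHCN-M2, was lowest at day 1 in C2C12, at 41.1 ± 5.18, 29.5 ± 3.20 and 60.7 ± 4.69 CPM at days 0, 1 and 6. The lines differed by 3.31 (SE 0.13, adjusted p = 8.78e-16) for this gene. Of 13 myogenic regulators measured in C2C12, 5 (38.5%) rose at day 1 and none fell, beside 9.97% risen of all genes there. The share risen in LHCN-M2 was 14.3%. MYOD1 in C2C12 read 2.91 ± 0.566, 6.06 ± 1.003 and 19.1 ± 1.97 CPM at days 0, 1 and 6, without a day 1 peak. Its difference between the lines was 2.01 (SE 0.16, adjusted p = 1.48e-10). MYMX read 0.600 ± 0.342, 1.39 ± 0.481 and 23.04 ± 2.58 CPM at days 0, 1 and 6 there, also with its highest mean at day 6.

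Mitotic genes were low at day 1 in both lines: 30 of 30 fell in C2C12 too. The size differed, since 29 of 30 deviations were lower in LHCN-M2. BUB1 read 88.6 ± 4.49, 66.4 ± 5.002 and 115 ± 8.50 CPM at days 0, 1 and 6 in C2C12. The lines differed by -1.91 (SE 0.11, adjusted p = 4.79e-13) for BUB1. ATF4 genes fell in 17 of 20 cases in C2C12, and their deviation was higher in LHCN-M2 in 16 of 20. The median deviation of the list was -1.78 in C2C12 and -0.88 in LHCN-M2. For MTHFD2, PHGDH, TRIB3 and CHAC1 the drop was deeper in C2C12 only against day 0. Against the last day it was deeper in LHCN-M2. TRIB3 read 139 ± 12.9, 3.90 ± 0.905 and 13.8 ± 1.19 CPM at days 0, 1 and 6 in C2C12. COL6A3 peaked at day 1 in C2C12, at 1417 ± 216, 1884 ± 138 and 506 ± 54.3 CPM at days 0, 1 and 6. Its difference between the lines was -3.42 (SE 0.18, adjusted p = 1.35e-13). C3 peaked in both lines, at 151 ± 23.7, 303 ± 27.1 and 0.156 ± 0.0427 CPM at days 0, 1 and 6 in C2C12. CTGF and CYR61 were not compared because the mouse table lists them under other symbols.

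**Figure D5:**
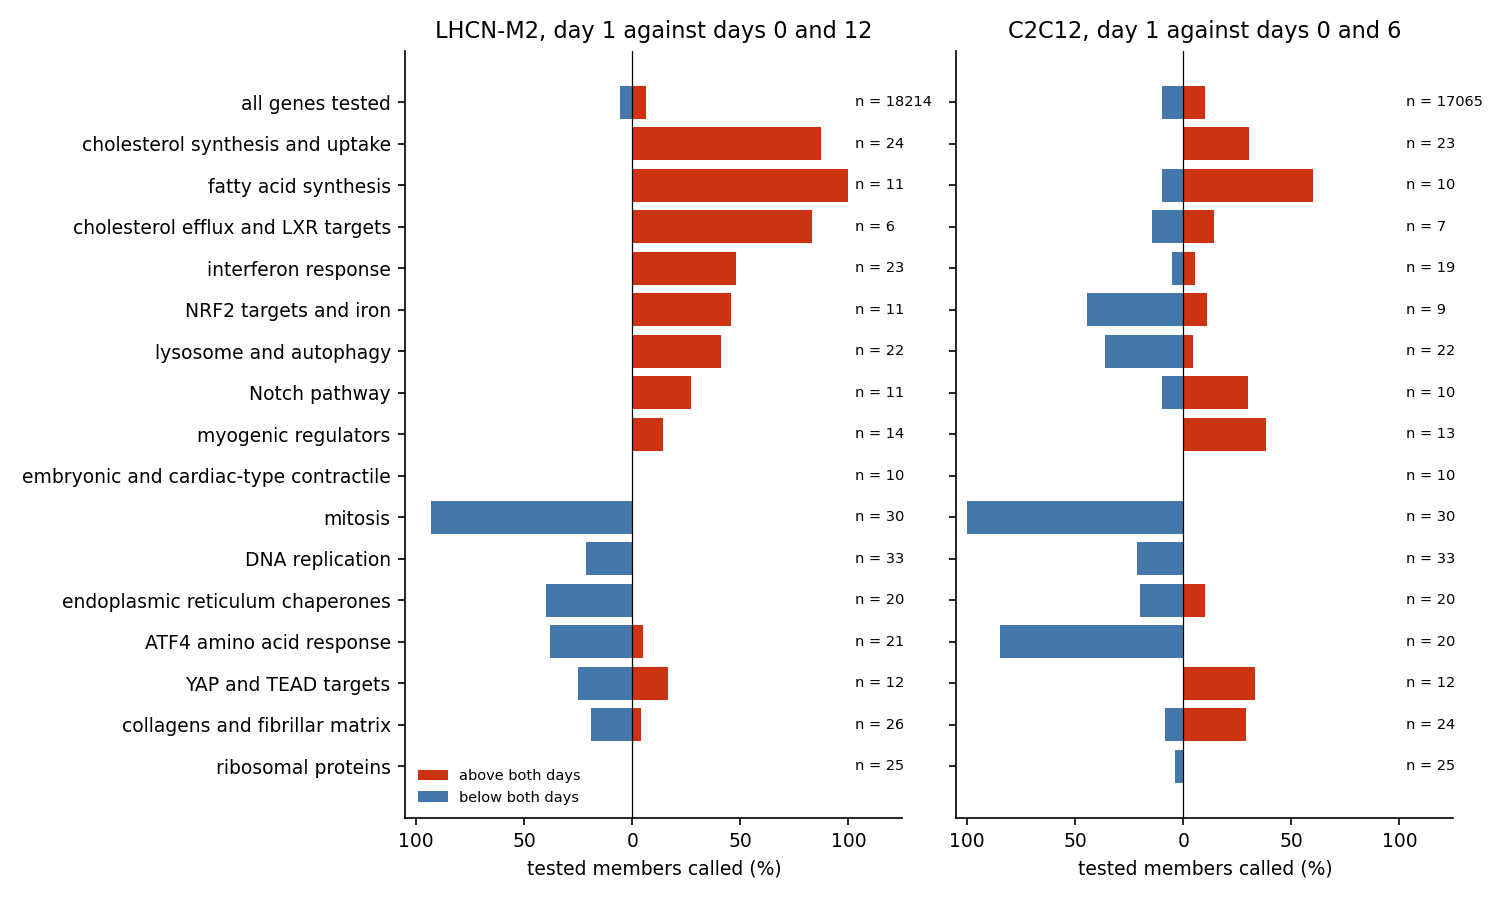
Share of the tested members of 17 gene groups (all genes and 16 lists; n beside each bar) called with day 1 above both days (red, to the right) or below both days (blue, to the left), for LHCN-M2 on the left panel and C2C12 on the right. The 3 lipid lists reach 83.3% to 100% above both days in LHCN-M2, and mitosis genes stand below both days in 93.3% of cases in LHCN-M2 and 100% in C2C12.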

How the data were processed

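Each deposited table lists raw read counts, 1 gene per row (58735 for LHCN-M2, 56748 for C2C12) and 1 library per column. Libraries were made from poly-A RNA, per the labels' protocols. The submitters' processing notes name featureCounts 2.0.6, StringTie 2.2.3, HISAT2 2.2.1 and fastp, and the builds mm10, GRCh38 and hg38. The strand setting of the counting is not given in the sources used here. Coordinates come from the human table and mark whole genes. From the counts, each line's 12 libraries were fitted with edgeR 4.0.16 (R 4.3.3, filterByExpr, TMM, quasi-likelihood test, 1 coefficient per day), with Benjamini-Hochberg adjustment over the 18214 human and 17065 mouse genes tested. The standard error (SE) is the fold change divided by the root of the F statistic. CPM uses TMM-scaled totals.

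A gene was called with the larger p of its 2 contrasts, with the sign read afterwards. Genes with opposite signs stayed in the adjustment, so the threshold of 0.05 does not give the false discovery rate among the called genes. Named genes are the 20 largest nearer-side changes in each direction with no overlap and at least 5 CPM, and up to 6 called members of each of the 50 lists (796 entries); FMOD, CXCL1, LEF1, IGFBP1, IGFBP4 and SFRP1 belong to such lists, and HMOX1 and the markers likewise. A few genes that this rule names are not reported here. Members, lists and rules were chosen with earlier results of these data known. The lines were compared in 1 edgeR fit of 24 libraries. Alternatives were DESeq2 1.42.0, its size factors, other filters, a replicate block and leaving out libraries. Same-numbered libraries showed no strong shared deviation: their correlations ran from -0.1002 to 0.0913 in LHCN-M2 and from -0.0527 to 0.0386 in C2C12. The labels do not say whether such libraries share a culture, and these values do not decide it. No 2 libraries agreed within sampling noise (chi-square per degree of freedom at least 6.32). The scripts were tested on simulated data.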

Additional observations from a re-analysis of the deposited data

Results flagged for a closer look

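Among the genes given by value in LHCN-M2, 270 groups of 4 libraries (and of their first components) were looked at for a library far from the other 3, by a gap above Dixon's critical value for 4 values, and 23 had one. Chance alone gives about 1 in 20. Day 0 replicate 2 was the library in many of them. It was the highest of its group for DES (434 CPM, others 249 to 264), CDH15 (258), MVD (99.1), APOE (8.80), FTL (3130), NQO1 (663), CTSA (249), CD7 (2.00) and ANGPTL4 (203), and the lowest for FADS1 (127) and MKI67 (162). On the components it stood at -110.3 on PC1 and -72.3 on PC3. Day 12 replicate 1 was the lowest on PC3 (-22.4) and the highest of its group for CCNG2 (103) and HSPA5 (931). At day 1, replicate 2 was the lowest for DES (1176) and DLL1 (43.4) and the highest for RUSC1-AS1 (23.4), and replicate 1 was the highest for MYH3 (8.40), HSD17B7 (44.0) and HEY1 (7.86). ANKRD1 in day 12 replicate 4 was the lowest (1011, others 1033 to 1038), a small gap in size.

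The day 1 deviation was higher in LHCN-M2 than in C2C12 in 2397 genes (21.9% of the 10952 tested) and lower in 3208 (29.3%). Of the 87 LHCN-M2 genes given by value, 78 had a match tested in both tables, and 76 of these differed by the interaction test. The other 2, IFITM1 (0.86, adjusted p = 0.0814) and FGFR4 (1.29, adjusted p = 0.0956), did not pass. Genes were named largely for their day 1 change in LHCN-M2, whose libraries enter this test, so the count of 76 is a description. In log2, the difference (LHCN-M2 minus C2C12) for lipid genes was 2.37 for INSIG1, 1.68 for LSS, 2.10 for HMGCS1, 1.25 for MVD, 0.93 for HSD17B7, 1.46 for DHCR7, 1.94 for FADS1, 1.75 for FADS2, 0.50 for FASN, 2.51 for ACSS2, 1.78 for ACSL3, 2.73 for APOE, 1.39 for ABCA1 and 1.88 for MYLIP. For interferon genes it was 2.35 for IFI44L (mean of at most 1.46 CPM on any day in C2C12), 1.73 for IFIT1, 2.50 for IFIT2, 2.05 for IFIT3 and 1.95 for MX1. For iron, stress and lysosome genes it was 3.31 for HMOX1, 1.13 for FTH1, 0.59 for TFRC, 1.18 for NQO1 and 1.14 for CTSA.

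For muscle genes the difference was 2.01 for MYOD1, 4.36 for MYMX, 1.30 for DES, 0.79 for CDH15, 0.93 for NCAM1, 1.49 for ACTA1, -0.44 for MYF5 and -2.60 for MYH3. It was 6.96 for MYOG, 3.57 for MYMK and 9.67 for MYBPC2, genes with 0 counts at day 0 in LHCN-M2, whose fitted values depend on the prior count. For Notch and growth factor genes it was 2.41 for DLL1, 1.02 for HEYL (mean of at most 2.38 CPM on any day in C2C12), 3.44 for HEY1, 2.54 for FST, 1.47 for IGFBP4 and 0.52 for SFRP1. Other risen genes with a positive difference were ATP2A3 (5.32), CCNG2 (2.09), EVI2A (2.89), CD7 (2.11), CXCL1 (1.84) and FMOD (0.80). Levels in C2C12 were low at days 0, 1 and 6 for ATP2A3 (2.85, 0.240 and 0.439 CPM) and CD7 (0.186, 0.539 and 0.735 CPM). C3 had the higher deviation in C2C12 (-2.91), where day 6 read 0.156 CPM. Its log2 fold change of day 1 over day 0 was 0.99 in C2C12 and 4.04 in LHCN-M2.

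Among the fallen LHCN-M2 genes, those of division and replication with a lower deviation in LHCN-M2 were CENPA (-2.44), MKI67 (-2.21), BUB1 (-1.91), KIF20A (-1.94), NUF2 (-2.47), TTK (-2.18), HMMR (-1.81), CDC6 (-2.26), RRM1 (-1.04) and E2F8 (-3.40). Signalling and matrix genes with a lower deviation were ANKRD1 (-2.09), ANGPTL4 (-5.76), COL6A3 (-3.42), COL4A1 (-1.76), COL4A2 (-1.61), PLAT (-2.46), HBEGF (-1.90), DUSP6 (-1.88), KLF2 (-2.28), KLF4 (-0.89) and LEF1 (-1.52). The chaperone and stress genes HSPA5 (-0.75), HYOU1 (-1.15) and XBP1 (-0.80) were lower too. The ATF4 target genes MTHFD2 (0.48), PHGDH (0.47), TRIB3 (1.36) and CHAC1 (0.94) had the lower deviation in C2C12. Their drop against day 0 was deeper in C2C12, and their drop against the last day was deeper in LHCN-M2.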

How the results depend on the processing

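Leaving out day 0 replicate 2 and day 12 replicate 1 together raised the LHCN-M2 counts from 1120 to 1840 risen and from 1036 to 1555 fallen genes. Leaving out 1 library at a time gave 912 to 1739 risen and 753 to 1508 fallen genes, the highest of each without day 0 replicate 2. The other alternatives kept both counts within 1.5 times: 995 and 906 with a replicate block, whose numbers are not known to pair the libraries, 1268 and 1335 with DESeq2, 1075 and 1107 with its size factors in edgeR (49.27% of calls risen, against 51.95%), and 964 and 873 when opposite signs were given a p of 1 before adjustment, a choice made after seeing the data. In C2C12 the replicate block gave 1653 risen and 1652 fallen genes, and leaving out 1 library gave 1636 to 1885 and 1265 to 1616. The interaction test called 5605 genes, 5396 with a block within each line, and 5260 to 6541 without 1 library. Of the 78 called genes given by value, all 78 kept their call with DESeq2, with size factors and without the 2 libraries; MX1 lost it with the block, and MX1, OAS1, IFIT1 or TRIB3 without some single library. No direction reversed. Depth limits genes with few reads, such as IGFBP1 with 38 counts at day 1.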
